A study of Arabidopsis thaliana with 4 samples.

Results

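The subject is a group of 10 genes of iron homeostasis in shoot apices of Arabidopsis thaliana, each read by 1 probe set among the 22746 on the array. They were given as a list of probe sets with gene names: 8 genes known to be more active when iron is scarce (IMA1, bHLH39, bHLH101, PYE, BTS, FRO3, OPT3 and NAS4) and 2 ferritin genes (FER1 and FER4). They were chosen by name as iron genes, with their ratios of 10H-CPT to DMSO and of as2-1 to Col-0 on these same 4 arrays known and with no stated threshold, so every ratio below is a description and carries no test. The annotation table of the array pairs 3 of the 10 probe sets with a gene (IMA1, listed under its locus AT1G47400, bHLH101 and PYE). The other 7 names come from the list itself.

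Apices bearing leaf primordia were taken from plants grown on agar for 14 days with 16 hours of light and 8 hours of dark. Plants were wild type (Col-0) or carried the mutant allele as2-1 of the AS2 gene (Asymmetric Leaves2), whose nuclear protein patterns the leaf; the mutant is in the same Col-0 background. Each genotype was given either 10H-CPT, a hydroxylated camptothecin that inhibits DNA topoisomerase I (TOP1), or DMSO, its solvent. The labels state no dose. The 4 groups are therefore Col-0 on DMSO, Col-0 on 10H-CPT, as2-1 on DMSO and as2-1 on 10H-CPT, with 1 array in each, so no value has a replicate error.

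Plants hold free iron within narrow limits. When iron runs short, IMA peptides and a chain of basic helix-loop-helix (bHLH) transcription factors switch on genes that reduce, chelate and move the metal, and the ubiquitin ligase BTS restrains the chain. When iron is plentiful, or under oxidative stress, plastids store it in ferritin shells, and the main leaf ferritin gene FER1 is a standard readout of iron supply. In young leaves both arms are read together: deficiency genes high with ferritin low in iron shortage, and the reverse in iron excess.

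On 10H-CPT the deficiency genes gave higher signals and the ferritin genes lower signals than on DMSO, in both genotypes. All 8 deficiency genes had a higher signal on 10H-CPT than on DMSO in Col-0, and all 8 in as2-1, although bHLH101 in as2-1 was below the floor for dim signals on both arrays. Of all measured probe sets, 49.2% were higher by any amount in Col-0 and 47.5% in as2-1, so the direction alone says little of a gene as close to even as FRO3. Both ferritin genes had a lower signal on 10H-CPT in Col-0 and in as2-1, as did 50.8% and 52.5% of all. The sizes differed widely between genes, from at least 19.9-fold for IMA1 in Col-0 to 1.14-fold for FRO3 in as2-1 among the genes above the floor on at least 3 arrays. In all 8 genes above the floor on at least 3 arrays, 10H-CPT and DMSO lay fewer folds apart in as2-1 than in Col-0, as in 48.1% of the 14587 probe sets measured on any array. All of these genes but FRO3 were past 2-fold in Col-0. Of the 514 probe sets past 2-fold there, 78.2% had a smaller or opposite ratio in as2-1.

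Signals are MAS5 intensities as deposited, on a linear scale. The floor is the 40th percentile of all signals, 46.6, and a signal below it was set to it before a ratio was taken. Where that befell only one of the 2 signals, the fold is a lower bound, given rounded, and reads "at least". To be measured in a comparison, a probe set needed a signal above the floor on either array. The 4 arrays had median signals between 86.0 and 88.3, and between 13590 and 13711 probe sets above the floor. For the 12717 probe sets with all 4 signals above the floor, the SD of the log2 ratio was 0.437 between 10H-CPT and DMSO in Col-0 and 0.466 in as2-1; it was 0.350 between the genotypes on DMSO and 0.453 on 10H-CPT. The tissue label could hardly be checked: of 5 shoot meristem genes listed as markers only CLV3 was paired with a probe set, and it was below the floor on all 4 arrays, while none of the 5 leaf primordium genes was paired. AS2 and the TOP1 genes were not paired with a probe set either. In such pooled tissue, fewer cells of a type and less RNA per cell cannot be told apart.

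**Figure D1:**
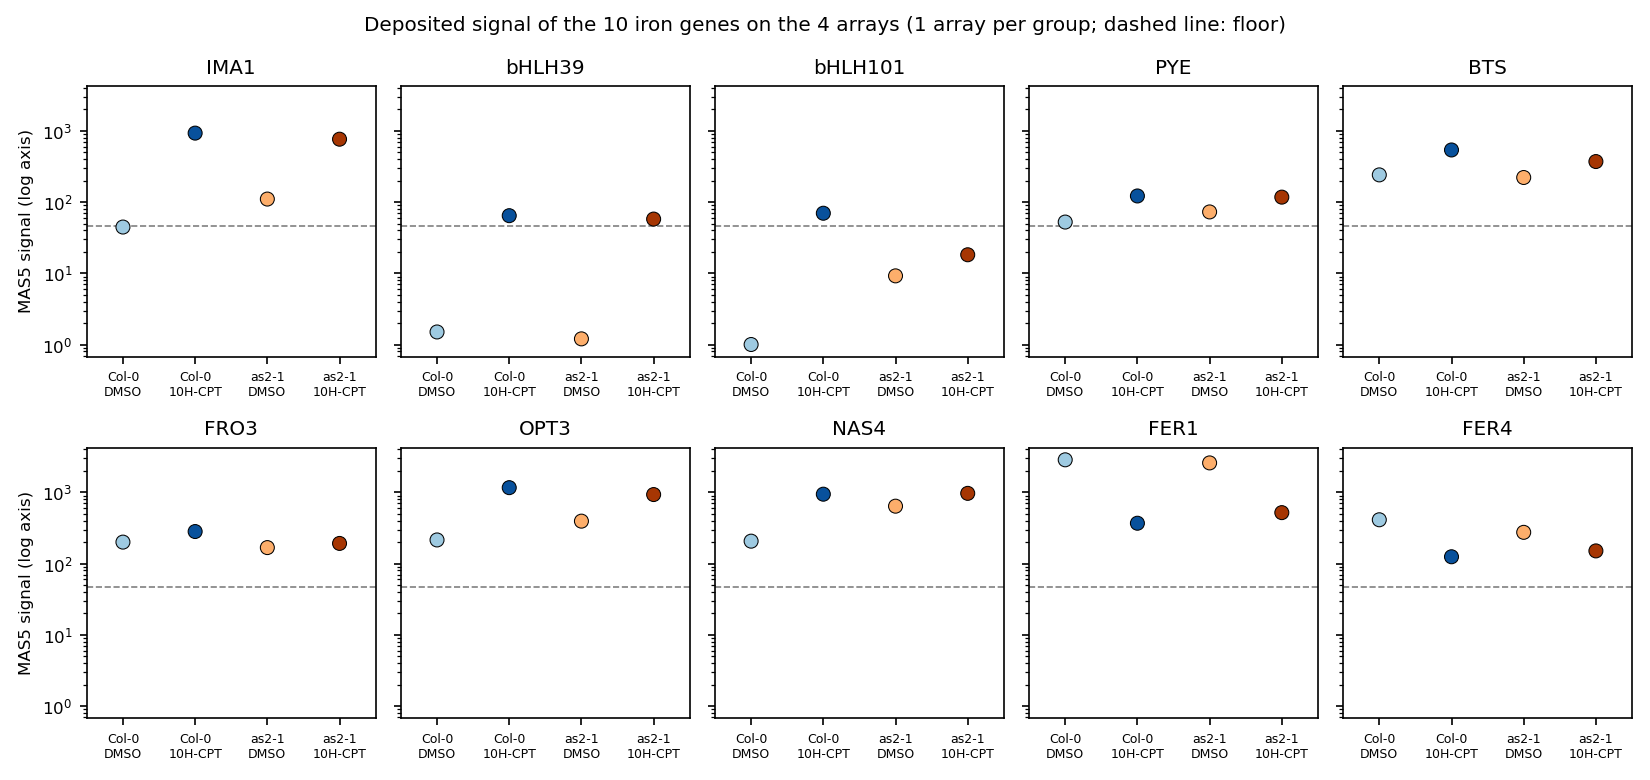
Deposited MAS5 signal (vertical, log axis) of each of the 10 genes on the 4 arrays (horizontal), 1 point per array, with the floor of 46.6 as a dashed line. The 10H-CPT points lie above both DMSO points for every deficiency gene except FRO3 and below both for FER1 and FER4. On DMSO bHLH39 and bHLH101 lie below the floor, and bHLH101 also does in as2-1 on 10H-CPT.

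IMA1 (probe set 261684_at) encodes a short peptide that acts upstream of the iron-deficiency bHLH factors. Wild-type apices gave signals of 44.6 (DMSO) and 929.1 (10H-CPT), and mutant apices gave 110.2 and 763.4. Both 10H-CPT arrays were far above both DMSO arrays, and Col-0 on DMSO was the lowest of the 4. The ratio of 10H-CPT to DMSO was at least 19.9-fold in Col-0, a bound because the DMSO signal was below the floor. In as2-1 it was 6.92-fold, the 14th highest of 14244.

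The iron-deficiency factors bHLH39 and bHLH101 belong to one small subgroup of bHLH proteins that partner the regulator FIT in roots. The bHLH39 probe set (251677_at) read 1.5 (wild type) and 1.2 (mutant) on DMSO, both far below the floor, against 64.4 and 57.7 under the inhibitor. It was thus above the floor on 10H-CPT alone, in both genotypes. Of the 8677 probe sets at or below the floor on both DMSO arrays, 1.69% were above it on both 10H-CPT arrays. Counted from the floor, the bHLH39 ratio was at least 1.38-fold in Col-0 and at least 1.24-fold in as2-1. The bHLH101 probe set (245692_at) read 1.0 (DMSO) and 69.7 (10H-CPT) in the wild type, against 9.2 and 18.2 in the mutant. Only the Col-0 array on 10H-CPT was above the floor, so the log2 ratio was at least 0.58 in Col-0 and no fold is given in as2-1. The floor decides these values: had it been the 20th percentile (9.9), the log2 ratio in Col-0 would be 2.70 for bHLH39 and 2.82 for bHLH101, against 0.47 and 0.58 with the floor used here.

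PYE (POPEYE) is a bHLH repressor induced by iron shortage, and BTS (BRUTUS) is an iron-binding ubiquitin ligase that targets bHLH activators. The PYE signal (252427_at) was 52.4 (DMSO) and 121.8 (10H-CPT) in the wild type, against 72.7 and 117.3 in the mutant. That is 2.33-fold higher on 10H-CPT in Col-0 and 1.61-fold higher in as2-1, from a Col-0 value on DMSO just above the floor. The BTS signal (257062_at) was 240.8 (DMSO) and 538.9 (10H-CPT) in the wild type, against 221.3 and 370.6 in the mutant. Its ratios were 2.24-fold and 1.67-fold. For both genes the 2 DMSO arrays were the lowest and Col-0 on 10H-CPT the highest.

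The effectors of iron movement split into strong and weak. OPT3, a transporter that loads iron into the phloem and is needed for the shoot to signal its iron status to the root, had wild-type signals (245296_at) of 214.6 (DMSO) and 1163.7 (10H-CPT) and mutant signals of 394.2 and 931.1. Its ratio was 5.43-fold in Col-0, the 28th highest of 14091, and 2.36-fold in as2-1. NAS4, one of the enzymes that make the metal chelator nicotianamine, had wild-type signals (259632_at) of 206.4 and 942.1 and mutant signals of 639.4 and 968.0. The NAS4 ratio was 4.57-fold in Col-0, the 33rd highest, but 1.51-fold in as2-1, where the DMSO array already read higher. FRO3, a ferric chelate reductase placed at the mitochondrion, had wild-type signals (264751_at) of 200.1 and 281.7 and mutant signals of 167.6 and 191.8. Its ratios of 1.41-fold and 1.14-fold were the smallest of the deficiency genes above the floor, and its as2-1 signal on 10H-CPT was below the Col-0 signal on DMSO.

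The ferritin genes went the other way. FER1 (251109_at), which encodes the plastid ferritin most responsive to iron in leaves, gave 2863.1 (DMSO) and 368.4 (10H-CPT) in wild-type apices, against 2590.1 and 519.0 in mutant apices. All 4 signals were well above the floor, and the treated and untreated arrays lay far apart. With the inhibitor FER1 was 7.76-fold lower in the wild type, the 5th lowest of 14091 measured probe sets. In the mutant it was 5.0-fold lower, the 22nd lowest of 14244. FER4 (263831_at), whose ferritin goes to plastids and mitochondria, gave 412.0 and 124.6 in wild-type apices, against 274.5 and 150.6 in mutant apices. With the inhibitor it was thus 3.30-fold lower in the wild type and 1.82-fold lower in the mutant. For both ferritin genes Col-0 on DMSO was the highest array and Col-0 on 10H-CPT the lowest, with the as2-1 arrays between them.

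Set against all probe sets, 5 of the 8 deficiency genes exceeded 2-fold upwards on 10H-CPT in Col-0 (IMA1, PYE, BTS, OPT3 and NAS4), where 1.55% of the 14091 measured probe sets did. With the floor raised to the 60th percentile PYE no longer did, leaving 4 of 8, and with it lowered to the 20th percentile bHLH39 and bHLH101 joined, making 7. In as2-1, 2 of the 8 did (IMA1 and OPT3), where 2.96% of 14244 did, and with the lower floor bHLH39 made it 3. At least 2-fold lower were both ferritin genes in Col-0, against 2.10% of all, and FER1 alone in as2-1, against 2.30%. IMA1, OPT3 and FER1 passed 2-fold in both genotypes, as did 1.77% of the 13748 probe sets measured in both. The median log2 ratio of the 8 deficiency genes was 1.19 in Col-0 and 0.64 in as2-1, with signals at the floor included; that of all measured probe sets was -0.007 and -0.021. In 7 of the 8 deficiency genes both 10H-CPT arrays were above both DMSO arrays, as in 20.3% of the 14587 probe sets measured on any array. For bHLH101, counted among them, only the Col-0 signal on 10H-CPT was above the floor. Both ferritin genes had both 10H-CPT arrays below both DMSO arrays, as did 23.3% of all. Because the list was made with these arrays in view, such counts describe the genes and support nothing further.

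**Figure D2:**
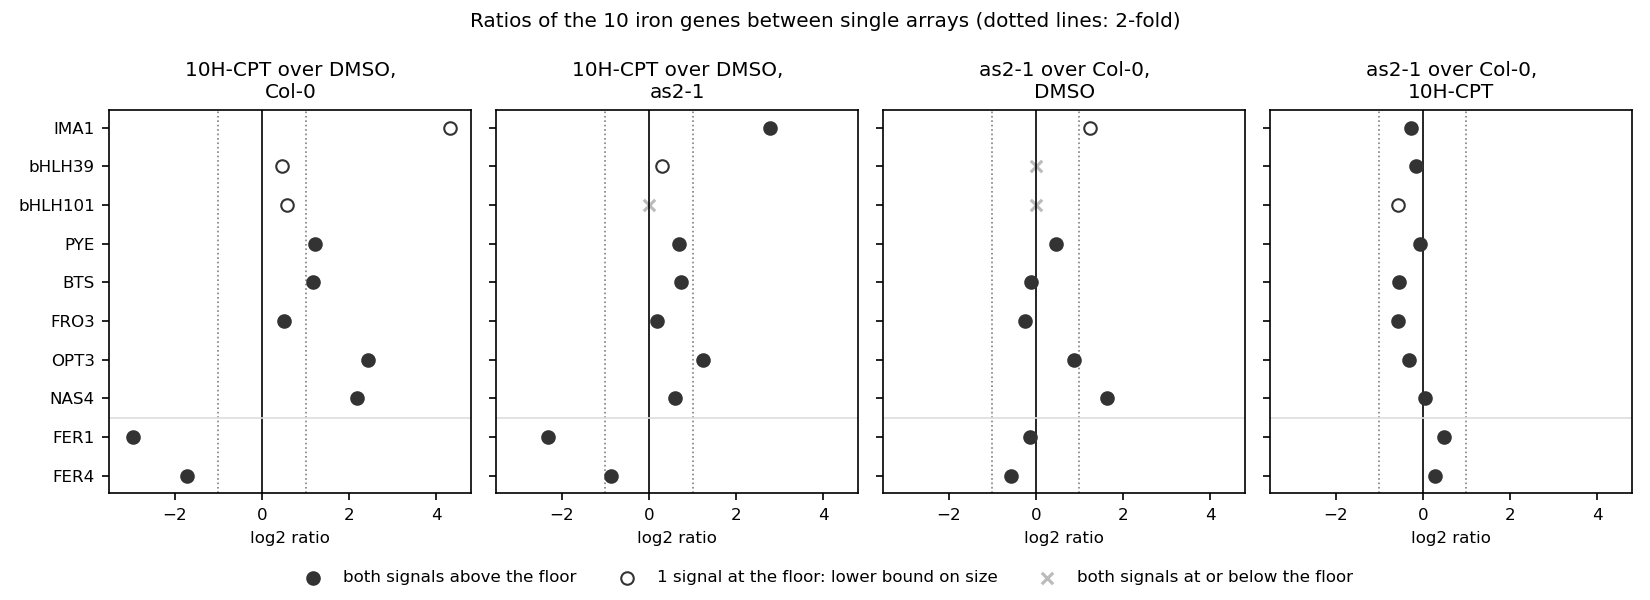
Log2 ratios between single arrays (horizontal) for the 10 genes (vertical) in 4 comparisons, with dotted lines at 2-fold; open circles are lower bounds on size and crosses have both signals at or below the floor. In Col-0 IMA1 reaches 4.32 and FER1 -2.96 on 10H-CPT, while between the genotypes on 10H-CPT every gene with both signals above the floor lies within 2-fold.

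The second question was whether the iron genes differed between as2-1 and Col-0 without the inhibitor. On DMSO, NAS4 was 3.10-fold higher in as2-1 (639.4 against 206.4), the 30th highest of 14069 measured probe sets. IMA1 was at least 2.37-fold higher (110.2 against a Col-0 signal of 44.6, just below the floor). OPT3 was 1.84-fold higher and PYE 1.39-fold higher. BTS was 1.09-fold lower and FRO3 1.19-fold lower, and bHLH39 and bHLH101 were below the floor in both genotypes. FER1 was 1.10-fold lower in as2-1 and FER4 1.5-fold lower (274.5 against 412.0). So 2 of the 8 deficiency genes, IMA1 and NAS4, were at least 2-fold higher in as2-1, where 1.04% of all measured probe sets were, and neither ferritin gene was 2-fold lower, where 1.09% of all were. The call for IMA1 depends on the floor, since both of its DMSO signals lie below 137.3, the 60th percentile. This comparison shares the Col-0 array on DMSO with the inhibitor comparison in Col-0, so a low reading on that one array enters both.

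On 10H-CPT the genotypes lay closer together. NAS4 was 1.03-fold higher in as2-1, and the other 7 deficiency genes had lower signals in as2-1 than in Col-0. IMA1 was 1.22-fold lower, OPT3 1.25-fold, BTS 1.46-fold and FRO3 1.47-fold lower, and PYE 1.04-fold lower. Signals of bHLH39 differed by 1.12-fold. The log2 ratio of bHLH101 was -0.58 or lower, its as2-1 signal being below the floor. FER1 was 1.41-fold higher in as2-1 and FER4 1.21-fold higher. In 5 of the 10 genes (IMA1, PYE, OPT3, FER1 and FER4) the genotype ratio pointed one way on DMSO and the other on 10H-CPT, as in 37.9% of the 14587 probe sets. In each of these 5 genes, 1 of the 2 log2 ratios was smaller in size than the SD of its comparison (0.350 on DMSO, 0.453 on 10H-CPT). None of the 10 genes passed 2-fold on 10H-CPT with this floor, where 4.26% of 14147 measured probe sets did. For bHLH101 that is no upper limit, since its fold is a lower bound: lowering the floor to the 20th percentile gave a log2 ratio of -1.94.

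The size of the inhibitor ratio, up or down, was smaller in as2-1 for each of the 8 genes above the floor on at least 3 arrays. The log2 ratio in as2-1 minus that in Col-0 was -1.60 for NAS4, -1.20 for OPT3, -0.53 for PYE, -0.42 for BTS and -0.30 for FRO3. For IMA1 it was -1.53 or lower, because its Col-0 ratio is a lower bound, and it shrank to -0.28 when the floor was raised to the 60th percentile, which set both DMSO signals to it. For the ferritin genes, where the inhibitor ratio is negative, it was 0.64 for FER1 and 0.86 for FER4. Of the 10 genes, 5 had a mean inhibitor ratio of at least 2-fold (IMA1, OPT3, NAS4, FER1 and FER4), and in all 5 the as2-1 ratio was the smaller in size. Among the 457 probe sets of the whole array with such a mean ratio, 44.6% had the smaller ratio in as2-1. A choice made on the Col-0 ratio would change that background: of the 514 probe sets past 2-fold in Col-0, 78.2% had a smaller ratio in as2-1, and of the 749 past 2-fold in as2-1, 82.4% had a smaller one in Col-0. All 7 iron genes past 2-fold in Col-0 had a smaller ratio in as2-1, a share to be read against that 78.2%. With 1 array per group, this difference between genotypes was not tested.

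The treated mutant can also be compared with untreated Col-0. Here 4 of the 8 deficiency genes exceeded their level in untreated Col-0 by 2-fold or more, where 4.27% of 14269 measured probe sets did: IMA1 at least 16.4-fold, NAS4 4.69-fold, OPT3 4.34-fold and PYE 2.24-fold. BTS was 1.54-fold higher and FRO3 1.04-fold lower. Both ferritin genes were at least 2-fold lower, FER1 by 5.52-fold and FER4 by 2.74-fold, where 3.53% of all were. For IMA1, PYE, BTS, OPT3, FER1 and FER4 these folds were smaller than those of the inhibitor in Col-0 (for FER1 7.76-fold), and for NAS4 the fold was close to the 4.57 there. Both sets of ratios share the Col-0 array on DMSO.

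Other iron genes with signals above the floor on all 4 arrays lay within 2-fold on 10H-CPT. Of 67 further genes of iron regulation, transport, storage, iron-sulphur cluster assembly and the root coumarins that mobilise iron, 16 were paired with a probe set in the annotation table, by 17 probe sets. Those not paired, and so not analysed here, include the other ferritin, NAS, FRO and IMA genes, the vacuolar iron transporters, IRT1 and FIT. Of the 14 probe sets measured in Col-0, 13 were above the floor on all arrays, and none of these was 2-fold apart between 10H-CPT and DMSO, with log2 ratios from -0.66 to 0.54. The other one was that of F6H1, a coumarin enzyme gene, which read 48.5 (DMSO) and 1.2 (10H-CPT) in the wild type, against 2.0 and 11.8 in the mutant; its single signal just above the floor gives no useful fold. In as2-1 none of the 13 was 2-fold apart, with log2 ratios from -0.85 to 0.56. The median log2 ratios of the measured probe sets were -0.03 and 0.17. Between the genotypes none of the 13 was 2-fold apart on DMSO or on 10H-CPT. In the treated mutant against untreated Col-0, bHLH34 and COSY, a coumarin synthase gene, passed 2-fold upwards with log2 ratios of 1.25 and 1.39, and MIT2 passed it downwards at -1.02.

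Several bHLH activators that sit above bHLH39 and PYE, some of them targets of BTS, were among those paired. ILR3 (bHLH105) gave 903.4 (DMSO) and 647.7 (10H-CPT) in the wild type, against 1112.2 and 615.8 in the mutant, lower with the inhibitor in each. Wild-type signals of bHLH115 were 505.4 and 537.4, and mutant ones 611.7 and 627.4. For bHLH34 wild-type signals were 65.3 and 91.6, and mutant ones 104.9 and 154.8, the highest being the treated mutant. Log2 ratios of 10H-CPT to DMSO were -0.48 and -0.85 for ILR3 in Col-0 and as2-1, 0.09 and 0.03 for bHLH115, and 0.49 and 0.56 for bHLH34. For bHLH104 they were -0.15 and -0.32, and for bHLH121 -0.66 and -0.15. None of these activators was thus 2-fold apart between 10H-CPT and DMSO, whereas IMA1, PYE and BTS were in Col-0. In as2-1 PYE and BTS were not, with log2 ratios of 0.69 and 0.74, smaller in size than the -0.85 of ILR3. PYE, BTS and IMA1 were chosen with their ratios known, and this contrast was not tested. BTSL1, a root relative of BTS, was below the floor on all arrays with both of its probe sets. The related BTSL2 was above the floor on all 4 arrays. It gave 50.2 (DMSO) and 62.4 (10H-CPT) in the wild type, against 69.3 and 76.7 in the mutant. Of the 3 iron-sulphur assembly genes paired (NFS2, HCF101 and ISU1), none was 2-fold apart in any comparison. Among the genes of iron reaching mitochondria, MIT1 had log2 ratios of -0.02 and 0.25 and MIT2 of -0.17 and -0.62.

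Finally, all probe sets other than the 10 with a range of at least 2-fold over the 4 arrays (1691) were ranked. The ranking was by how close their pattern came to the mean pattern of the iron genes. The measure was the Euclidean distance between log2 profiles over the 4 arrays, each centred on its own mean. The mean profile of the deficiency genes stood at -0.85 and 0.76 in the wild type without and with the inhibitor, and at -0.37 and 0.45 in the mutant. This mean rests in part on the floor, since bHLH39, bHLH101 and, in untreated Col-0, IMA1 had signals below it. The nearest named genes were AT5G17700 at a distance of 0.28, APS3, an ATP sulfurylase, at 0.29, AT4G36420 at 0.29, and AT4G33660 and AT1G48750, both at 0.33. Another 7 probe sets with no single gene in the table lay among them. The untreated Col-0 signal of AT5G17700, 42.2, was below the floor. APS3 gave 193.6 (DMSO) and 635.4 (10H-CPT) in the wild type, against 338.5 and 601.5 in the mutant. The deficiency genes themselves lay between 0.32 (PYE) and 2.40 (IMA1) from their mean. IMA1, PYE and OPT3 shared one order of the arrays, from untreated Col-0 at the bottom through untreated and treated as2-1 to treated Col-0 at the top, and differed in how far apart the arrays lay.

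The mean ferritin profile was 1.17, -1.17, 0.80 and -0.79 in the same order. Nearest to it was AT1G13750 at a distance of 0.07, with wild-type signals of 257.0 and 52.6 and mutant signals of 198.9 and 64.0. AT1G67600 followed at 0.28, AT5G09570 at 0.32, AT3G43670 at 0.43 and FHL at 0.44, with 7 probe sets of no single gene passed over. Some of these distances rest on the floor. Both treated signals of AT1G67600 (42.0 and 40.7) and of AT3G43670 (28.6 and 45.9) were below it, as was the treated as2-1 signal of AT5G09570 (33.8). FER1 and FER4 each lay 0.69 from their mean. In AT1G13750 the treated arrays were below the untreated ones, and Col-0 showed the wider gap, as in both ferritin genes. That follows from its choice as the nearest profile. The likeness is over 4 arrays only.

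**Figure D3:**
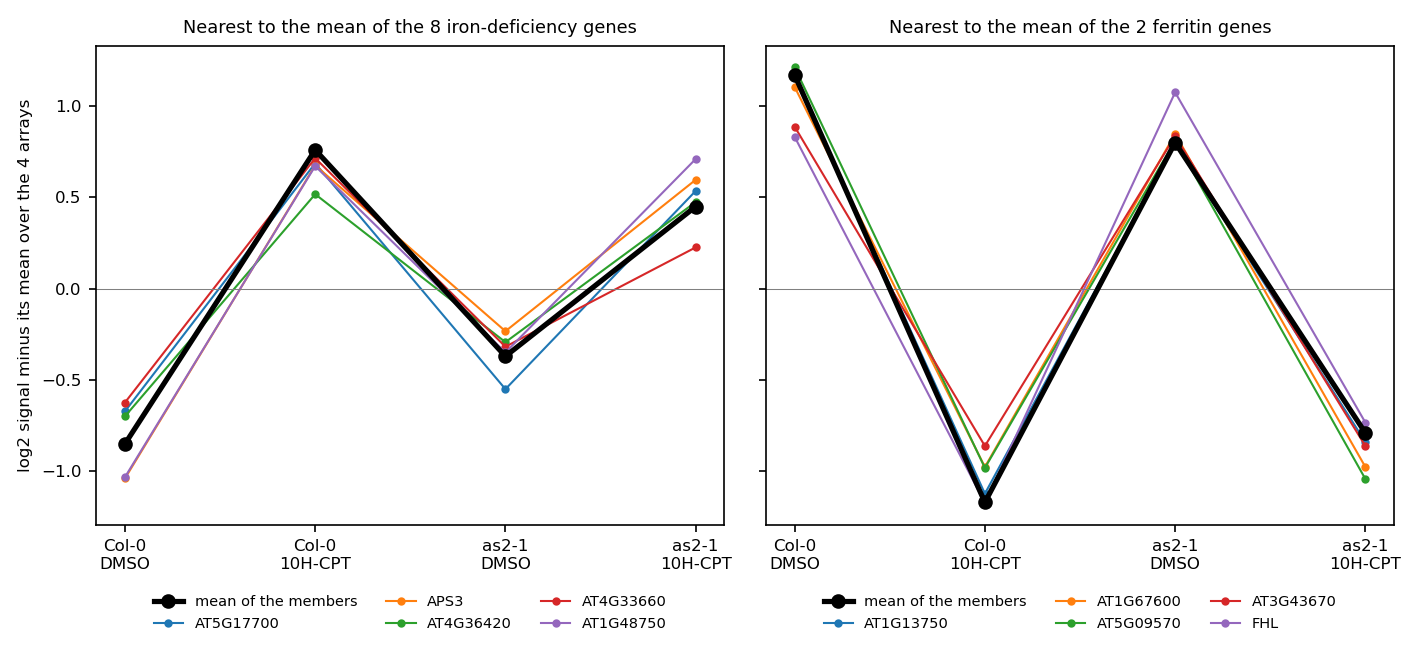
Log2 signal minus its mean over the 4 arrays (vertical) on each array (horizontal) for the mean of the deficiency genes (left, black) and of the ferritin genes (right, black) with the 5 nearest named genes of each in colour. The black line runs from -0.85 on untreated Col-0 to 0.76 on treated Col-0 at left, and from 1.17 to -1.17 at right, with the as2-1 arrays less far apart in both.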

How the data were processed

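The authors deposited 1 MAS5 signal intensity for each probe set and array, on a linear scale; MAS5 is named per the submitters' processing notes. For its version, scaling target and detection calls, nothing is given in the sources used here. Trimmed means (2% off each end) of the 4 arrays lay between 198.3 and 198.5. The arrays were rescaled to one trimmed mean (factors 0.9994 to 1.0006), signals below 46.6 were set to that floor, and log2 ratios were taken between single arrays. Counts use a 2-fold threshold with no test, since each group has 1 array, and that number limits the precision. The submitters' labels give the groups.

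Members and lists were chosen with earlier results of these data known. Gene names beyond the 10 come from the platform annotation, matched through gene IDs to the RefSeq table (TAIR10.1): 13513 probe sets had 1 gene, 503 several and 8730 were not listed. The text names all 10 members and the 5 nearest profiles with a single gene. Other listed genes are given by counts, and those also named with values were picked outside the naming rule set beforehand. Listed genes past 2-fold the same way in both genotypes, or both treatments, were to be named, and there were none. Other settings tried were no rescaling, quantile normalization, a lower floor (20th percentile), a higher floor (60th), a pseudocount of 16 without a floor, and thresholds of 1.5-fold and 3-fold. Ratios and profile distances were tried on simulated data in which only bright probe sets were changed. Values decided by the floor, as for the dim genes here, were not covered by that trial. Python 3.11.15, numpy 2.4.6, pandas 2.3.3 and matplotlib 3.10.9 were used.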

Additional observations from a re-analysis of the deposited data

Results flagged for a closer look

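In 5 of the 10 genes the as2-1 over Col-0 ratio pointed one way on DMSO and the other way on 10H-CPT, as it did in 37.9% of the 14587 measured probe sets. With single arrays, none of these differences was tested. For IMA1 the log2 ratio was 1.24 or higher on DMSO and -0.28 on 10H-CPT, and for OPT3 it was 0.88 and -0.32. For PYE it was 0.47 and -0.06. For the ferritin genes the signs were reversed, with -0.14 on DMSO and 0.49 on 10H-CPT for FER1. For FER4 they were -0.58 and 0.27. In each of the 5 genes, 1 of the 2 ratios was smaller in size than the SD of its comparison. That SD, over 12717 probe sets, was 0.350 on DMSO and 0.453 on 10H-CPT. The small ratio was on DMSO for FER1 and on 10H-CPT for the others. The shift from DMSO to 10H-CPT is the same quantity as the genotype difference in inhibitor ratio, so it adds no separate result.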

How the results depend on the processing

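None of the 60 log2 values of the 10 genes reversed sign under values as deposited, quantile normalization, either other floor or the pseudocount, and the first pair moved none of them by over 0.5. The floor at the 20th percentile moved 8 by more than that, the floor at the 60th percentile 11, and the pseudocount 8, all of them values of IMA1, PYE, bHLH39 or bHLH101, whose DMSO signals are dim. A value that went to or from 0 did not count as reversed. With the floor at the 60th percentile every ratio of PYE, bHLH39 and bHLH101 was 0, so their direction was lost there. Counts of deficiency genes past 2-fold on 10H-CPT were 7 in Col-0 with the lower floor or the pseudocount and 4 with the higher floor, against 5, and 3 in as2-1 with the lower floor or the pseudocount, against 2. In the treated mutant against untreated Col-0 they were 5 with the lower floor or the pseudocount, 3 with the higher floor, 5 at 1.5-fold and 3 at 3-fold, against 4. Deficiency genes 2-fold apart between the genotypes on 10H-CPT numbered 1 (bHLH101, lower in as2-1) with the lower floor and with the pseudocount, against 0. Those apart on DMSO numbered 1 with the higher floor and 3 at 1.5-fold, against 2. At 1.5-fold, 5 deficiency genes and 2 ferritin genes passed in as2-1 on 10H-CPT, against 2 and 1. At 3-fold, 3 deficiency genes passed in Col-0 (against 5), 1 in as2-1 and 1 between the genotypes on DMSO, and 1 ferritin gene in the treated mutant against untreated Col-0 (against 2). No paired analysis was possible because the groups, with 1 array each, share fewer than 2 replicate numbers. Leaving out a replicate was not possible either.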
